A study of Homo sapiens with 18 samples.

Results

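The 8 genes described here encode known partners of the ankyrin repeats of ANKRA2 or RFXANK, or members of the family or complex of a partner. They are the class IIa histone deacetylases *HDAC4*, *HDAC5*, *HDAC7* and *HDAC9*, the endocytic receptor megalin (*LRP2*), and *CCDC8*, *CUL7* and *OBSL1*, which encode the 3M complex. They were chosen by name, out of 26702 genes in the deposited tables, and all 8 were found in each of the 6 tables. The measurements are RNA-seq of polyadenylated RNA from U2OS cells, a human osteosarcoma line that carries wild-type p53. All groups were transfected with siRNA, either siControl, siANKRA2 or siRFXANK, and each was treated for 24 h with 10 µM Nutlin-3a, an inhibitor of MDM2 that raises p53, or with the solvent DMSO. Each of the 6 groups had 3 samples, 18 in all, and the labels say neither whether these were separate cultures nor how many siRNA sequences were used against a target. The siRFXANK samples were registered apart from the others under labels of another form, which add bone as the tissue, epithelial cells as the cell type and wild-type as the genotype, and they came without siControl samples of their own. In siRFXANK over siControl, a batch difference and the effect of the siRNA therefore cannot be told apart.

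ANKRA2 and RFXANK are related proteins with a C-terminal stack of ankyrin repeats. RFXANK serves the RFX transcription factors, and the repeats of both proteins bind partner proteins. The groove of the repeats reads a short stretch in its partners: a proline, any residue, a leucine, a proline, any residue, and an isoleucine or leucine. Several class IIa deacetylases carry such a stretch near a 14-3-3 docking site. The class IIa proteins have little catalytic activity of their own, sit on MEF2 transcription factors with corepressors, and leave the nucleus once kinases phosphorylate them. Megalin takes up filtered proteins in the kidney tubule through its large extracellular domain, and ANKRA2 was found on its cytoplasmic tail. In the 3M complex CUL7 is a cullin scaffold of a ubiquitin ligase, OBSL1 is a cytoskeletal adaptor and CCDC8 is the subunit that anchors the assembly at membranes. Loss of any of these subunits causes 3M syndrome, a disorder of growth.

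The sequences that tie these genes together are the coding bases of that stretch. A search of the longest GENCODE 29 coding sequence of each gene on GRCh38 (hg38 in the labels) found the pattern in *HDAC4*, *HDAC5*, *HDAC9*, *LRP2* and *CCDC8*, and not in the longest coding sequence of *HDAC7*, *CUL7* or *OBSL1*. Of 20036 protein-coding genes searched in the same way, 780 held it, 3.89%. The lines below give, 5′ to 3′ on the coding strand, the 18 bases that encode the 6 residues in capitals with 9 bases on either side in lower case.
HDAC4: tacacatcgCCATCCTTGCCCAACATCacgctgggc
HDAC5: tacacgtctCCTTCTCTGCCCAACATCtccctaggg
HDAC9: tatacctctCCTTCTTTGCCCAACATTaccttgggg
LRP2: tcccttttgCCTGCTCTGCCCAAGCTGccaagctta
CCDC8: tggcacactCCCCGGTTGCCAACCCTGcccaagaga
The *HDAC4* stretch lies in an exon at chr2:239134560-239134577 on the minus strand and encodes residues 349 to 354 of 1084. In *HDAC5* it is at chr17:44091748-44091765 on the minus strand and encodes residues 368 to 373 of 1123. For *HDAC9* the position is chr7:18644740-18644757 on the plus strand, residues 328 to 333 of 1069. The *LRP2* stretch, at chr2:169139256-169139273 on the minus strand, encodes residues 4456 to 4461 of 4655, in the cytoplasmic tail. A second match in *LRP2* overlaps the first, at residues 4459 to 4464, and its coding bases span an exon junction. *CCDC8* has it at chr19:46411296-46411313 on the minus strand, residues 500 to 505 of 538. A match is a description of these letters and not a measurement of binding.

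The tables hold 6 comparisons with no values per library, so the depth of each library is unknown and a group is given below by its recovered mean. That mean, in normalized counts, was solved from the deposited fold changes and their errors and is approximate. It is printed as mean ± SE, n = 3 libraries, where the SE is the distance to the upper bound. This SE rests on a single dispersion per gene for all groups, so it is not the spread among the 3 libraries of a group. For the 8 genes, the authors' mean over all samples of their fit was between 0.684 times (*HDAC5*) and 1.27 times (*OBSL1*) the mean of the 6 recovered group means. Differences between groups are given as log2 fold changes with their standard error (SE), and a gene was called where the Benjamini-Hochberg adjusted p was under 0.05. A knockdown comparison is given as the knockdown relative to siControl, the direction in which each targeted gene is lower after its own siRNA. In bulk RNA, fewer cells with a transcript and less of it per cell cannot be told apart.

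The targeted genes were read first, and that each fell after its own siRNA is set by the reading of direction above. *ANKRA2* was at a log2 fold change of -1.81 (SE 0.18) after siANKRA2 in DMSO and at -2.58 (SE 0.12) in Nutlin-3a, and *RFXANK* was at -2.96 (SE 0.10) and -3.16 (SE 0.10) after siRFXANK. Each knockdown also moved the other gene, since *RFXANK* was at -0.37 and -0.44 after siANKRA2 and *ANKRA2* at 0.73 and 0.46 after siRFXANK. The authors' mean of *ANKRA2* was 155 times the mean of its 6 recovered group means, far from the ratios of the 8 genes. It was 31568, above the highest recovered group mean of 507. That of *COL1A1* was 64042, below the lowest recovered group mean of 72797. If the recovered means hold, the authors' mean is not the average of these 6 groups alone. It is used below as a rough level and as a filter. In siControl cells Nutlin-3a raised *CDKN1A*, which encodes the cell cycle inhibitor p21, by 3.27 (SE 0.04) and *MDM2* by 3.38 (SE 0.05). In DMSO siANKRA2 raised *CDKN1A* by 2.04 (SE 0.04) and *MDM2* was at -0.11 (SE 0.05, adjusted p = 0.0654), while with siRFXANK *CDKN1A* was at -0.06 (SE 0.04, adjusted p = 0.273) and *MDM2* rose by 0.48 (SE 0.05). Of the osteoblast markers *COL1A1*, *SPARC* and *RUNX2* were present, and *SP7* and *IBSP* had no values. The authors' mean was 204 for *SPP1* (recovered group means from 44.3 to 228) and 148 for *ALPL* (32.3 to 245). It was 33.2 for *COL1A2* (24.6 to 76.7) and 2.08 for *BGLAP*. Of the epithelial markers *KRT8* and *KRT18* were high. *CLDN4* had an authors' mean of 599 (recovered group means from 352 to 1134), *EPCAM* of 161 (94.1 to 181) and *KRT14* of 159 (143 to 288). For *CDH1* it was 32.9 (6.74 to 50.4), for *KRT5* 3.56 (0.493 to 15.1) and for *KRT19* 1.67. Of 8 epithelial markers 4 were higher and 2 lower with siANKRA2 in DMSO, and of 7 osteoblast markers tested likewise 4 and 2. Over all genes 24.3% were called higher and 24.5% lower there. With siRFXANK in Nutlin-3a 4 epithelial and 2 osteoblast markers were lower, where 19.6% of all genes were called lower. The part of these markers in the results below was not tested. Among the 13103 genes whose authors' mean was 100 or more, the median log2 fold change lay between -0.02 and 0.02 in every comparison. The authors' DESeq2 normalization scales libraries to a typical gene, so such a median is largely set by that step. It cannot show whether total RNA per cell changed.

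The counts over the 8 genes have to be read against the many genes called in each table. Nutlin-3a over DMSO called 5 of the 8 in siControl cells, all higher, where 43.2% of 25909 genes were called and 21.9% were called higher. In siANKRA2 cells it called 5, 4 of them higher, against 32.4% of 22738 genes. In siRFXANK cells, from the derived response, it called 5, 4 of them higher, against 45.3%. siANKRA2 over siControl called 6 in DMSO, 2 higher and 4 lower, against 48.8% of 26702 genes, and 7 in Nutlin-3a, 2 higher and 5 lower, against 50.1%. siRFXANK over siControl called 7 in DMSO, 5 higher and 2 lower, against 42.1%, and 6 in Nutlin-3a, 1 higher and 5 lower, against 39.4%. The differences of responses called 6 for siANKRA2, where 24% of genes were called and 12.5% were lower, and 4 for siRFXANK, where 21.2% were called and 9.64% were lower. All 10 of those calls were lower responses, and they are not independent, since both differences subtract the same siControl response. Among the 13103 genes with a mean of 100 or more, a level that 7 of the 8 reach, the share called was higher in every comparison, and all calls of members were among those 7. For Nutlin-3a over DMSO it was 67.5% in siControl, 48.7% in siANKRA2 and 70.3% in siRFXANK cells, beside 5 of 7 members in each. For siANKRA2 it was 77.0% with DMSO, beside 6 of 7, and 78.1% with Nutlin-3a, beside 7 of 7. For siRFXANK it was 69.5% with DMSO, beside 7 of 7, and 62.7% with Nutlin-3a, beside 6 of 7. For the differences of responses it was 37.1% with siANKRA2, beside 6 of 7, and 37.7% with siRFXANK, beside 4 of 7. The median of the 8 was 0.49 for Nutlin-3a in siControl cells and -0.71 for siANKRA2 in Nutlin-3a, and the medians of all genes were 0.02 and -0.01. For siANKRA2 in DMSO they were -0.35 and 0.01.

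*HDAC4*, a repressor of MEF2 in bone and muscle, had the largest response to Nutlin-3a of the 8 genes in siControl cells. Its group mean was 61.7 ± 5.45 in siControl cells with DMSO and 408 ± 21.2 with Nutlin-3a. With siANKRA2 the means were 68.2 ± 5.79 in DMSO and 119 ± 8.31 in Nutlin-3a. With siRFXANK they were 83.5 ± 6.58 and 287 ± 15.9. The 3 DMSO groups lay below the 3 Nutlin-3a groups, and the 3 Nutlin-3a groups were apart from each other by more than their errors. The rise with Nutlin-3a was 6.62-fold in siControl cells (log2 fold change 2.73, SE 0.14, adjusted p = 1.96e-81), larger than that of 99.4% of genes with a mean of at least 100. It was 1.74-fold in siANKRA2 cells (0.80, SE 0.15, adjusted p = 1.7e-06). In siRFXANK cells, for which the response had to be derived from 3 tables, it was 3.44-fold (1.78, SE 0.13, adjusted p = 2.29e-39). The difference between responses was itself tested: it was -1.92 (SE 0.21, adjusted p = 2.08e-18) for siANKRA2 and -0.94 (SE 0.19, adjusted p = 2.49e-05) for siRFXANK, each against siControl.

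At baseline the picture for *HDAC4* was different. siANKRA2 did not change it past the threshold in DMSO (0.14, SE 0.17, interval -0.19 to 0.48, adjusted p = 0.525), and siRFXANK raised it by 0.44 (SE 0.16, adjusted p = 0.0195). In Nutlin-3a it was 3.43-fold lower with siANKRA2 than with siControl (-1.78, SE 0.12, adjusted p = 1.43e-46). With siRFXANK it was 1.42-fold lower (-0.51, SE 0.11, adjusted p = 9.8e-06). For the p53 targets used as a check, the Nutlin-3a response of *CDKN1A* was lower in siANKRA2 than in siControl cells (difference -1.85, SE 0.06), as was that of *MDM2* (-1.19, SE 0.07), and in siRFXANK cells the differences were -0.82 (SE 0.06) and -0.33 (SE 0.07). Their levels in Nutlin-3a did not all follow. With siANKRA2 *CDKN1A* was higher than in siControl cells (0.20, SE 0.04) and *MDM2* lower (-1.30, SE 0.05), and with siRFXANK *CDKN1A* was lower (-0.88, SE 0.04) and *MDM2* higher (0.15, SE 0.05). The part of the p53 response in the values of *HDAC4* was not tested.

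*HDAC9*, the deacetylase gene with the longest locus of the 4 and a known brake on muscle gene expression, was higher in both knockdowns. Its mean in siControl cells was 449 ± 18.7 in DMSO and 875 ± 32.1 in Nutlin-3a. siANKRA2 cells had 1535 ± 52.7 and 1444 ± 49.9. siRFXANK cells had 1118 ± 39.7 and 2311 ± 76.6. The siControl DMSO group was the lowest of the 6, and the siRFXANK Nutlin-3a group the highest, 5.15 times above it. siANKRA2 raised *HDAC9* 3.42-fold in DMSO (1.77, SE 0.08, adjusted p = 2.9e-117) and 1.65-fold in Nutlin-3a (0.72, SE 0.07, adjusted p = 3.58e-23). siRFXANK raised it 2.49-fold in DMSO (1.32, SE 0.08) and 2.64-fold in Nutlin-3a (1.40, SE 0.07), which was above 99.5% and 99.6% of the genes with a mean of 100 or more. The 2 knockdown effects in DMSO share the siControl DMSO libraries, and those in Nutlin-3a the siControl Nutlin-3a libraries.

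The response of *HDAC9* to Nutlin-3a was not seen in siANKRA2 cells. It rose 1.95-fold in siControl cells (0.96, SE 0.08) and 2.07-fold in siRFXANK cells (1.05, SE 0.07), and in siANKRA2 cells its log2 fold change was -0.09 (SE 0.07, interval -0.22 to 0.05, adjusted p = 0.375). The response in siANKRA2 cells was lower than in siControl cells (difference -1.05, SE 0.10, adjusted p = 7.8e-22). The difference between the siRFXANK and siControl responses was 0.09 (SE 0.10, interval -0.12 to 0.29, adjusted p = 0.657).

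*HDAC5*, a close relative of *HDAC4*, was also higher in DMSO with either siRNA. The group mean was 754 ± 25.1 in siControl DMSO and 1139.6 ± 35.1 in siControl Nutlin-3a. siANKRA2 cells had 1666 ± 48.6 and 2133 ± 60.6, the 2 highest of the 6 groups. siRFXANK cells had 1292 ± 39.1 with DMSO and 1129 ± 34.9 with Nutlin-3a. No group was as low as siControl DMSO. The siANKRA2 effect was 2.21-fold in DMSO (1.14, SE 0.06, adjusted p = 3.21e-72) and 1.87-fold in Nutlin-3a (0.90, SE 0.06). The siRFXANK effect was 1.71-fold in DMSO (0.78, SE 0.06) and could not be seen in Nutlin-3a (-0.01, SE 0.06, interval -0.13 to 0.11, adjusted p = 0.899). Nutlin-3a raised *HDAC5* in siControl cells (0.60, SE 0.06) and in siANKRA2 cells (0.36, SE 0.06) but lowered it in siRFXANK cells (-0.19, SE 0.06, adjusted p = 0.00431). The siRFXANK response was lower than that of siControl (difference -0.79, SE 0.09, adjusted p = 1.09e-16), and so was the siANKRA2 response (-0.24, SE 0.09, adjusted p = 0.0275).

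*HDAC7*, known for its roles in endothelium and thymocytes, was the most abundant of the 4 per length in siControl cells and moved the other way. Its mean was 4742 ± 96.9 in siControl DMSO and 5037 ± 102 in siControl Nutlin-3a. siANKRA2 cells had 3008 ± 64.5 and 2659 ± 57.9, the 2 lowest groups. siRFXANK cells were in between, with 3910.0 ± 81.4 and 4433 ± 91.1. It was 1.58-fold lower with siANKRA2 in DMSO (-0.66, SE 0.04, adjusted p = 3.99e-53) and 1.89-fold lower in Nutlin-3a (-0.92, SE 0.04, adjusted p = 3.19e-102). With siRFXANK it was lower by less, at -0.28 (SE 0.04) in DMSO and -0.18 (SE 0.04) in Nutlin-3a. Its response to Nutlin-3a was small in every background: 0.09 (SE 0.04, adjusted p = 0.0751) in siControl, -0.18 (SE 0.04, adjusted p = 0.000269) in siANKRA2 and 0.18 (SE 0.04) in siRFXANK cells. The siANKRA2 response differed from the siControl response by -0.26 (SE 0.06, adjusted p = 0.000105). An antisense gene, *AC004466.1*, covers 963 of its exon bases (9.70%) on the other strand, and whether counting used the strand is not stated in the sources used here.

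**Figure D1:**
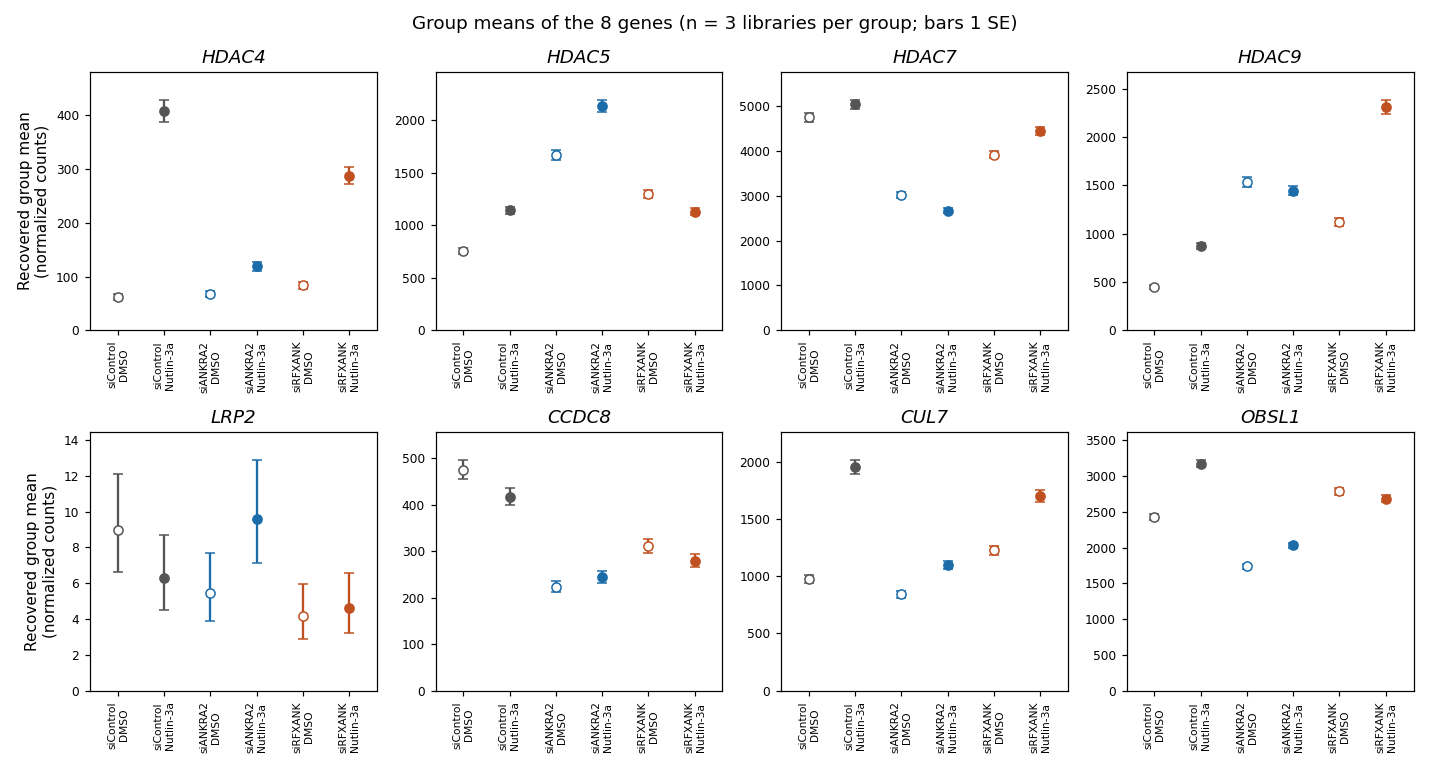
Recovered group means of the 8 genes in normalized counts (vertical axes, from 0) in the 6 groups (horizontal axes), with bars of 1 SE and n = 3 libraries per group; open points are DMSO, filled points Nutlin-3a. *HDAC4* is high in siControl Nutlin-3a (408) and siRFXANK Nutlin-3a (287) and not in siANKRA2 Nutlin-3a (119), *HDAC7* and *CCDC8* are lowest in the siANKRA2 groups, and *LRP2* lies between 4.14 and 9.59 with wide bars.

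The makeup of the 4 class IIa genes differed between groups more than their sum. Per kilobase of exon, the 4 summed to 608 ± 10.3 normalized counts in siControl DMSO and 618 ± 9.51 in siANKRA2 DMSO, and to between 636 and 754 in the other groups. *HDAC7* held 78.6% ± 0.560 (SE) of that sum in siControl DMSO and 49.0% ± 0.769 in siANKRA2 DMSO, and *HDAC5* held 16.3% ± 0.517 and 35.4% ± 0.775. *HDAC9* went from 4.39% ± 0.186 in siControl DMSO to 14.8% ± 0.476 in siANKRA2 DMSO and 18.2% ± 0.545 in siRFXANK Nutlin-3a. *HDAC4* was the smallest share in every group, from 0.759% in siControl DMSO to 4.13% in siControl Nutlin-3a. In siANKRA2 Nutlin-3a *HDAC5* (43.6%) and *HDAC7* (41.7%) were close, and their order there depends on the scale: with means scaled to the authors' mean the shares were 33.3% and 52.7%. On that scale *HDAC7* still went from 85.1% in siControl DMSO to 59.8% in siANKRA2 DMSO. The sum of the 4 was then lower in siANKRA2 DMSO than in siControl DMSO, so the order of the sums depends on the scale too. The authors' mean need not be the average of these 6 groups, so that scale is a rough check and not an equal alternative. Exon length here is that of all annotated exons merged, and the isoforms used by U2OS cells are not known from these tables.

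**Figure D2:**
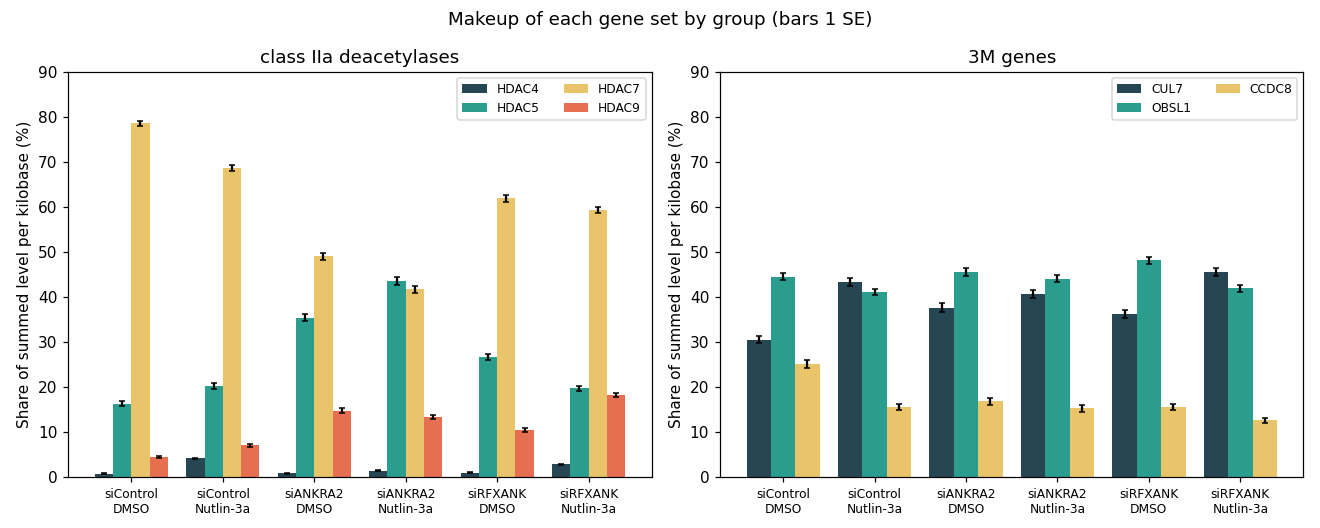
Share of each gene (vertical axis, percent) in the summed level per kilobase of exon of the class IIa deacetylases (left) and of the 3M genes (right), by group, with bars of 1 SE. *HDAC7* falls from 78.6% in siControl DMSO to 49.0% in siANKRA2 DMSO while *HDAC5* and *HDAC9* gain, and *CCDC8* is at 25.0% of the 3M sum in siControl DMSO and at 12.6% to 16.8% in every other group.

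The other histone deacetylases moved both ways. In siANKRA2 over siControl in DMSO, where 24.3% of all genes were higher and 24.5% lower, 1 of 7 was higher and 4 were lower, led by *HDAC6*, the cytoplasmic tubulin deacetylase (-0.89, SE 0.06), and *HDAC1*, a subunit of nuclear corepressor complexes (-0.48, SE 0.04). Their median was -0.25, and that of all genes tested 0.01. In siControl cells with Nutlin-3a 1 was higher, *HDAC11* (0.58, SE 0.07), and 3 were lower, with *HDAC1* at -0.39 (SE 0.04). Over all genes 21.9% were called higher and 21.2% lower in that comparison. Most genes on this list and the related lists below had an authors' mean of 100 or more, where a larger share was called. In that class, in either direction, it was 67.5% with Nutlin-3a in siControl cells. It was 77.0% with siANKRA2 in DMSO, 78.1% with siANKRA2 in Nutlin-3a and 69.5% with siRFXANK in DMSO. Among the 9 MEF2 factors and corepressors that class IIa deacetylases bind, siANKRA2 in DMSO raised 3 and lowered 2, with a median of 0.11. *MEF2D*, the MEF2 gene with the highest level per length, was at 0.76 (SE 0.05), and *NCOR1*, the nuclear receptor corepressor, at -1.08 (SE 0.06). *NCOR1* was at -1.38 (SE 0.07) in Nutlin-3a, and with siRFXANK at -0.62 (SE 0.06) in DMSO and -0.12 (SE 0.06, adjusted p = 0.12) in Nutlin-3a. *MEF2C*, whose product drives muscle and bone programmes, had an authors' mean of only 16.2, with recovered group means from 3.69 to 54.2.

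The genes that act on the location of these deacetylases moved both ways. The 14-3-3 proteins hold phosphorylated class IIa deacetylases in the cytoplasm. With Nutlin-3a in siControl cells 1 of 7 rose, *SFN* (1.54, SE 0.05), a p53 target itself, and 3 fell, with *YWHAH* at -0.94 (SE 0.04) and a list median of -0.09. Over all genes 21.9% were called higher and 21.2% lower there. After siANKRA2 in DMSO, where 24.3% of all genes were called higher and 24.5% lower, 3 of these 14-3-3 genes rose and 2 fell. The median was 0.04, and *YWHAG* was at -0.81 (SE 0.05). Of 13 kinases that drive their export, siANKRA2 in DMSO raised 5 and lowered 5 (median 0.03), with *SIK1* at 1.60 (SE 0.13), *CAMK2D* at 1.26 (SE 0.05), *CAMK2G* at -0.82 (SE 0.04) and *CAMK4* at -0.51 (SE 0.07). Of 6 measured genes known as MEF2 targets held down by class IIa deacetylases, siANKRA2 raised 4 and lowered 2 in DMSO, where 48.8% of all genes were called and 24.3% were higher, and raised 4 in Nutlin-3a, where 50.1% were called and 24.6% were higher, with *NR4A1*, which encodes an orphan nuclear receptor, at 1.28 (SE 0.05) and 1.02 (SE 0.05). *KLF2*, a transcription factor of vessel walls, was at 1.07 (SE 0.16) with siANKRA2 and at 2.91 (SE 0.14) with siRFXANK in DMSO. *SLC2A4*, on the same list, was lower in DMSO, at -0.33 (SE 0.12) with siANKRA2 and -0.45 (SE 0.12) with siRFXANK. With siRFXANK in DMSO 2 genes of the list were higher, 1 was lower and 3 were not called. Over all genes 20.9% were called higher and 21.2% lower with siRFXANK in DMSO. *KLF4*, *PPARGC1A* and *MMP10*, also on that list, had authors' means under 100, and *SOST* was not in the tables. The list median with siANKRA2 was 1.17 in DMSO and 1.17 in Nutlin-3a. *KLF4* and *MMP10* here, and *LRP1B* and *AMN* on the lists of megalin relatives and helpers below, had a group mean under a floor of 3 normalized counts, and with such means set to the floor the medians printed for these lists were the same.

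*LRP2* was close to the limit of detection. Its recovered means ran from 4.14 in siRFXANK DMSO to 9.59 in siANKRA2 Nutlin-3a, with 8.97 ± 3.15 in siControl DMSO, and the authors' mean was 4.77. No difference between neighbouring groups in the order exceeded its error. None of the 9 comparisons called it, and the log2 fold changes ran from -1.11 (SE 0.68, adjusted p = 0.192) for siRFXANK in DMSO to 1.32 (SE 0.91, adjusted p = 0.337) for the difference of responses. An effect of siANKRA2 in DMSO anywhere between -1.99 and 0.57 is within its interval, so a change was not detectable at this depth. Other proximal tubule genes were low too, with authors' means of 25.0 for *CUBN* (cubilin, the coreceptor of megalin), 3.37 for *AMN* and 2.79 for *SLC5A2*, and *SLC34A1* was not in the tables.

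The relatives and helpers of megalin moved both ways. Of 11 other members of the LDL receptor family, 4 rose and 2 fell with Nutlin-3a in siControl cells (median 0.12), led by *LRP1* (1.38, SE 0.13), a large scavenger receptor, and *LRP10* (1.36, SE 0.04). Over all genes 21.9% were called higher and 21.2% lower there. After siANKRA2 in Nutlin-3a, where 24.6% of all genes were called higher and 25.5% lower, 5 of the family rose and 4 fell (median 0.30). *VLDLR* was at 1.28 (SE 0.06) and *LRP8*, a reelin receptor, at -1.05 (SE 0.07). Among 8 coreceptors, chaperones and adaptors, siANKRA2 in DMSO raised 2 and lowered 4 (median -0.09), including *LRPAP1*, the chaperone of this receptor family, at -0.55 (SE 0.04) and *SNX17*, a sorting nexin that recycles it, at -0.44 (SE 0.05). *CLCN5*, an endosomal chloride transporter, was at 0.63 (SE 0.08). Over all genes 24.3% were called higher and 24.5% lower with siANKRA2 in DMSO.

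*CUL7*, the cullin scaffold of the 3M ligase, rose with Nutlin-3a in all 3 backgrounds. Its mean was 977 ± 33.5 in siControl DMSO and 1959 ± 61.7 in siControl Nutlin-3a. siANKRA2 cells had 842 ± 29.5 and 1097 ± 36.9. siRFXANK cells had 1228 ± 40.7 and 1705 ± 54.4. No group mean was as high as that of siControl Nutlin-3a, and siANKRA2 DMSO was the lowest. The rise was 2.004-fold in siControl (1.003, SE 0.07, adjusted p = 6.33e-51), 1.30-fold in siANKRA2 (0.38, SE 0.07) and 1.39-fold in siRFXANK cells (0.47, SE 0.07). Both knockdown responses were lower than that of siControl, with differences of -0.62 (SE 0.10, adjusted p = 1.78e-09) and -0.53 (SE 0.09, adjusted p = 4e-07). In DMSO the knockdowns were on opposite sides of siControl, at -0.22 (SE 0.07, adjusted p = 0.00484) for siANKRA2 and 0.33 (SE 0.07, adjusted p = 4.8e-06) for siRFXANK. In Nutlin-3a both were below it, at -0.84 (SE 0.07) and -0.20 (SE 0.06, adjusted p = 0.00551). *KLC4*, on the other strand, shares 329 of the exon bases of *CUL7* (5.85%).

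*OBSL1*, the cytoskeletal adaptor, was likewise highest in siControl Nutlin-3a and lowest in siANKRA2 DMSO, with smaller steps. Its mean was 2433 ± 43.1 in siControl DMSO and 3174 ± 53.3 in siControl Nutlin-3a. siANKRA2 gave the 2 lowest groups, 1738 ± 33.5 in DMSO and 2030.3 ± 37.6 in Nutlin-3a. siRFXANK cells had 2785 ± 48.0 and 2685 ± 46.6, whose difference did not pass the threshold. Both siControl means were above both siANKRA2 means. Nutlin-3a raised it in siControl (0.38, SE 0.03) and siANKRA2 cells (0.22, SE 0.04), and in siRFXANK cells its log2 fold change was -0.05 (SE 0.03, adjusted p = 0.226). The siRFXANK response was lower than that of siControl (difference -0.44, SE 0.05, adjusted p = 1.63e-16), and so was the siANKRA2 response (-0.16, SE 0.05, adjusted p = 0.0113). siANKRA2 lowered *OBSL1* 1.40-fold in DMSO (-0.49, SE 0.04, adjusted p = 1.77e-37) and 1.56-fold in Nutlin-3a (-0.64, SE 0.04). siRFXANK raised it in DMSO (0.20, SE 0.04) and lowered it in Nutlin-3a (-0.24, SE 0.03).

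*CCDC8*, the membrane anchor and the 3M gene with the binding stretch, fell with both siRNAs in both treatments. Its mean was 475 ± 21.4 in siControl DMSO and 417 ± 19.2 in siControl Nutlin-3a, above all other groups. siANKRA2 cells had 223 ± 11.9 and 244 ± 12.7. siRFXANK cells had 312 ± 15.3 and 279 ± 14.1. No group of either knockdown reached the siControl groups within 1 SE. It was 2.13-fold lower with siANKRA2 in DMSO (-1.09, SE 0.10, adjusted p = 1.51e-27) and 1.71-fold lower in Nutlin-3a (-0.78, SE 0.10, adjusted p = 1.68e-14). With siRFXANK it was 1.52-fold lower in DMSO (-0.61, SE 0.09, adjusted p = 5.66e-10) and 1.49-fold lower in Nutlin-3a (-0.58, SE 0.10, adjusted p = 1.16e-08). Nutlin-3a did not change it past the threshold in siControl (-0.19, SE 0.09, adjusted p = 0.0849), siANKRA2 (0.13, SE 0.11, adjusted p = 0.396) or siRFXANK cells (-0.16, SE 0.10, adjusted p = 0.193). Neither difference of responses was called, at 0.32 (SE 0.14, interval 0.04 to 0.59 before adjustment, adjusted p = 0.0852) for siANKRA2 and 0.03 (SE 0.13) for siRFXANK. *CCDC8* is a gene of 1 exon, and no annotated gene overlaps it.

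**Figure D3:**
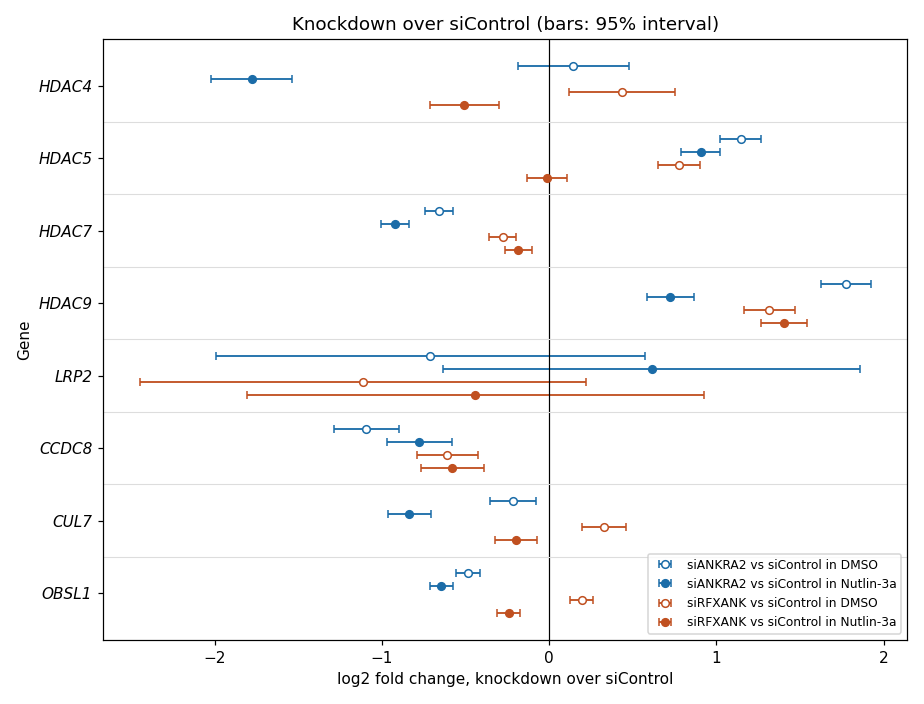
Log2 fold change of each gene in the knockdown over siControl (horizontal axis, bars of the 95% interval), with siANKRA2 in blue and siRFXANK in orange, open points for DMSO and filled points for Nutlin-3a. *HDAC9* lies to the right and *CCDC8* and *HDAC7* to the left of 0 in all 4 comparisons, *HDAC4* is at -1.78 with siANKRA2 in Nutlin-3a and at 0.14 in DMSO, and every interval of *LRP2* crosses 0.

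In the makeup of the 3M genes, per kilobase of exon, the sum of the 3 was 569 ± 9.66 in siControl DMSO, 803 ± 13.4 in siControl Nutlin-3a and 397 ± 7.12 in siANKRA2 DMSO, the lowest of the 6 groups. *CCDC8* made up 25.0% ± 0.886 of it in siControl DMSO, 15.6% ± 0.637 in siControl Nutlin-3a and 16.8% ± 0.777 in siANKRA2 DMSO. Its lowest share was 12.6% ± 0.578, in siRFXANK Nutlin-3a. *CUL7* ranged from 30.5% in siControl DMSO to 45.5% in siRFXANK Nutlin-3a, and *OBSL1* stayed between 41.1% and 48.2%. In siControl Nutlin-3a *CUL7* (43.3%) and *OBSL1* (41.1%) were close and their order depends on the scale, being 38.6% and 46.1% with means scaled to the authors' mean. The same holds in siRFXANK Nutlin-3a, where 45.5% and 41.9% became 40.5% and 47.0% on that scale. That scale has the limit given above for the class IIa genes. The levels are of RNA, and the stoichiometry of the complex was not measured.

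Genes that work with the 3M subunits also moved both ways. Of the 5 genes for the subunits, the relative and a substrate of the CUL7 ligase, siANKRA2 in DMSO raised 1, *SKP1* (0.42, SE 0.06), the adaptor of the ligase, and lowered 2, with a median of -0.04. These were *CUL9*, the p53-binding relative of *CUL7* (-0.69, SE 0.06), and *IRS1*, an insulin receptor substrate that this ligase targets (-0.63, SE 0.10). *CUL9* rose with Nutlin-3a in siControl cells (0.62, SE 0.06) and in siANKRA2 cells (0.27, SE 0.06), and the response was lower in siANKRA2 cells (difference -0.35, SE 0.09). With siRFXANK in DMSO 2 of the 5 were higher and 2 lower, where 20.9% of all genes were called higher and 21.2% lower. *FBXW8*, the F-box protein of the ligase, was at -0.75 (SE 0.10) and *IRS1* at -0.67 (SE 0.10). *SKP1* was at 0.42 (SE 0.06) and *RBX1*, another gene of the list, at 0.40 (SE 0.07). Of 6 other cullins 5 fell with Nutlin-3a in siControl cells (median -0.17), where 21.2% of all genes were called lower, with *CUL3* at -0.38 (SE 0.04). Among genes with an authors' mean of 100 or more 67.5% were called there in either direction. For siANKRA2 in DMSO 1 of them rose, *CUL1* (0.34, SE 0.06), and 2 fell (median 0.02), with *CUL4B* at -0.59 (SE 0.06). The counts of both lists with siANKRA2 in DMSO stand beside 24.3% of all genes called higher and 24.5% called lower.

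**Figure D4:**
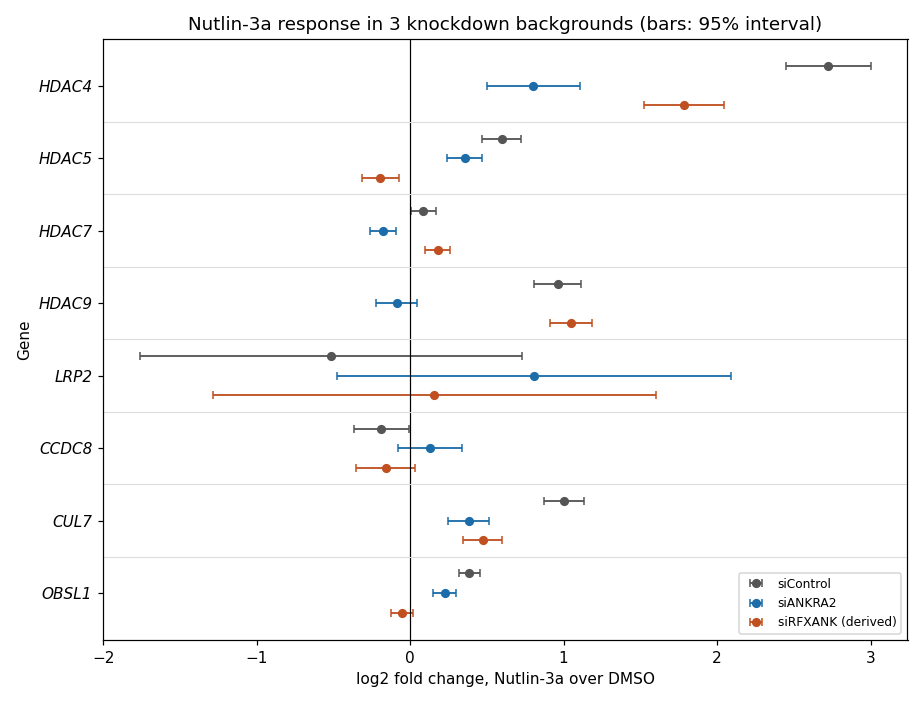
Log2 fold change of each gene with Nutlin-3a over DMSO (horizontal axis, bars of the 95% interval) in siControl, siANKRA2 and siRFXANK cells, the last derived from 3 tables. The siControl response of *HDAC4* (2.73) lies to the right of the siRFXANK (1.78) and siANKRA2 (0.80) responses, and *HDAC9* responds in siControl and siRFXANK cells and is near 0 in siANKRA2 cells.

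The genes whose pattern over 5 comparisons was most like that of each member were named by Euclidean distance, in log2 units, among 13103 genes. *HDAC4* had no close neighbour: the nearest were *RAB40B*, at a distance of 0.63, and *BTG2*, an antiproliferative p53 target, at 0.73. *HDAC9* was nearest to *RPL13AP20* (0.20) and *ANKRD1* (0.65), and *HDAC5* to *RPL34P27* (0.22) and *ID3* (0.32), where the first of each pair is a ribosomal protein pseudogene. *HDAC7* lay close to *CLNS1AP1* (0.15), also a pseudogene, and *ITCH* (0.16). Reads of a pseudogene and of its parent gene can be hard to tell apart, so these 3 are uncertain. *CUL7* was nearest to *SEC14L2* (0.22) and *TCP11L1* (0.24), *OBSL1* to *WASHC3* (0.13) and *ELAC1* (0.19), and *CCDC8* to *ADAMTS2* (0.20) and *FAM76A* (0.25). Among the members the closest pairs were *HDAC7* and *OBSL1* (0.65), *CUL7* and *OBSL1* (0.72) and *HDAC7* and *CCDC8* (0.74), and the most distant *HDAC9* and *CCDC8* (4.41). The patterns share libraries across comparisons, and the distances carry no test.

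On the genome, *HDAC4* (chr2:239048168-239401654), *LRP2* (chr2:169127109-169362685) and *OBSL1* (chr2:219550729-219571859) are on chromosome 2, each on the minus strand and far from the others. *HDAC5* (chr17:44076746-44123702), *HDAC7* (chr12:47782722-47833132), *CUL7* (chr6:43037617-43053945) and *CCDC8* (chr19:46410329-46413662) are also on minus strands, and *HDAC9* (chr7:18086949-19002416) is on a plus strand. Stretches of 31 bases shared with transcripts of other genes made up at most 2.25% of the longest transcript, in *CUL7*.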

How the data were processed

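RNA of U2OS cells was sequenced in 18 samples, 3 per group. The submitters' processing notes name hg38, Trimmomatic 0.39, cutadapt 2.10, featureCounts 1.6.5 and DESeq2 1.20.0. The aligner, the annotation and the use of strand are not given in the sources used here. The accompanying paper does not describe this experiment. The authors deposited 6 tables of DESeq2 comparisons with no values per library, so depth per library is unknown and no count model was fitted here. The deposited mean normalized count of a gene, the same in all tables, was treated as a signal value. The deposited fold changes and standard errors are on the log2 scale, the deposited Wald score is their ratio, and the deposited p-value and its Benjamini-Hochberg adjusted p-value are the authors', recomputed here from the p-values to within 1.58e-15. P-values and standard errors rest on a single dispersion per gene in the authors' fit, and not on the spread within each group. The spread behind that dispersion may be technical.

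Computed here were the difference of 2 Nutlin-3a responses, divided by its standard error (the square root of both variances added), with a two-sided normal p and Benjamini-Hochberg adjustment across every gene, and the siRFXANK response, as the siControl response plus siRFXANK over siControl in Nutlin-3a minus that in DMSO. The formula for its standard error, tried on siANKRA2, where a table exists, gave the deposited standard errors (ratio 1.00 for the lowest and the highest gene). A constant difference between the 2 registrations cancels in this response. Group means were fitted to fold changes and standard errors by least squares, with the variance of a log2 mean as (1/mean + dispersion)/(n ln2²), n = 3, and a mean under 0.5 set to 0.5. These steps were tested on simulated data with 200 changed genes. The simulation used the same error formula with known dispersions, so it checks the arithmetic and not how well the formula holds for the deposited errors. Levels per kilobase used merged GENCODE 29 exons on GRCh38. Intervals are 95%, as 1.96 standard errors. Python 3.11.15, numpy 2.4.6, pandas 2.3.3, scipy 1.17.1 and matplotlib 3.10.9 were used.

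The members and the gene lists were chosen with earlier results of these data known. Named genes are the 8 members, both knockdown targets, *CDKN1A* and *MDM2*, from each related list at most the 2 largest rises and falls among called genes with an authors' mean of at least 100, and the 2 nearest genes of each member with that mean. List genes with a lower mean, markers and overlapping genes are named as levels only. A further related list is not reported here. Alternatives were a stricter threshold (0.01), an absolute log2 fold change of 1 or more, means of 10 or 100 and above, genes in all 6 tables only, centring on the median gene, the other pair of siANKRA2 tables, and 2 other ways to recover levels.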

Additional observations from a re-analysis of the deposited data

Results flagged for a closer look

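The responses to Nutlin-3a that differed between a knockdown and siControl cells by the test of the difference itself, after adjustment over all genes, were 10 among the 8 genes, and all were lower in the knockdown. Of all genes 24% were called with siANKRA2 and 21.2% with siRFXANK, 12.5% and 9.64% as lower. Among genes with a mean of 100 or more 37.1% and 37.7% were called. Both differences subtract the same siControl response, so the 10 calls are not independent. With siANKRA2 the difference in log2 fold change was -1.92 for *HDAC4*, -1.05 for *HDAC9*, -0.62 for *CUL7*, -0.26 for *HDAC7*, -0.24 for *HDAC5* and -0.16 for *OBSL1*. With siRFXANK it was -0.94 for *HDAC4*, -0.79 for *HDAC5*, -0.53 for *CUL7* and -0.44 for *OBSL1*. The difference was past the threshold with siANKRA2 and not with siRFXANK for *HDAC7* and *HDAC9*, and whether the 2 knockdowns differ from each other was not tested. In the same comparisons the responses of *CDKN1A* (-1.85 and -0.82) and *MDM2* (-1.19 and -0.33) were lower too. In Nutlin-3a itself *CDKN1A* was higher than in siControl cells with siANKRA2 (0.20) and lower with siRFXANK (-0.88), and *MDM2* was lower with siANKRA2 (-1.30) and higher with siRFXANK (0.15). The part of the p53 response in the values of the 8 genes was not tested. In DMSO *HDAC9* was higher than in siControl cells with siANKRA2 (1.77) and siRFXANK (1.32), as was *HDAC5* (1.14 and 0.78).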

How the results depend on the processing

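No paired analysis was possible because single libraries have no values in these tables. Leaving out a replicate, another count model and a filter on counts per library could not be run for the same reason. With a minimum log2 fold change of 1 the 8 genes had 2 calls for Nutlin-3a in siControl (*HDAC4*, *CUL7*), 0 in siANKRA2 and 2 in siRFXANK cells (*HDAC4*, *HDAC9*); 3 for siANKRA2 in DMSO (*HDAC5*, *HDAC9*, *CCDC8*) and 1 in Nutlin-3a (*HDAC4*); 1 for siRFXANK with DMSO and 1 with Nutlin-3a (*HDAC9* in each); and 2 for the siANKRA2 (*HDAC4*, *HDAC9*) and 0 for the siRFXANK difference of responses. The cause is the construction of that setting. Under the other settings tried, all 9 counts stayed within 1.5 times and no direction turned. At a threshold of 0.01 *HDAC4* with siRFXANK in DMSO and the siANKRA2 differences of responses of *HDAC5* and *OBSL1* were no longer called. *HDAC7* with Nutlin-3a in siControl cells was called when p-values were adjusted over genes whose mean was 100 or more, or when centred on the median gene (0.10). Scaling to the authors' mean moved 30 of 48 recovered levels by more than the spread that their SE implies for a single library. That mean need not be the average of these 6 groups, so this setting is only a rough check. The recovered means are approximate too, so the order of genes with close shares is not fixed. Levels under 10, as in *LRP2*, limit what can be detected.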
